A study of Drosophila melanogaster with 36 samples.

Results

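The second collection day of the WT course was compared with the first. The series holds 36 arrays of abdominal fat body from adult male Drosophila melanogaster, and the 24 arrays labelled WT enter this comparison. They were chosen by their time labels: 12 arrays at ZT 24 to ZT 46 form day 2 and 12 arrays at ZT 0 to ZT 22 form day 1, where ZT counts hours from lights-on. Each day 2 array was paired with the day 1 array of the same hour, ZT 24 with ZT 0 and so on, which gives 12 hour pairs. WT flies carried w and a heterozygous UAS-dnClk transgene, with no driver named. Newly eclosed males of both days had been kept for 5 days in cycles of 12 h light and 12 h darkness at 25 °C before collection began. Collection ran over 2 consecutive days, and the labels do not say whether the flies of both days came from 1 cohort. The 12 arrays labelled dnClk, 6 on day 2 and 6 on day 1, are used in a single comparison below, and the labels name no driver for them. Each array held RNA pooled from 10 fat bodies of 1 time point, and no time point was repeated. The p-values therefore measure the spread between these arrays, which may be technical. With 12 arrays a day, precision is limited.

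The fat body is the fly's liver and adipose tissue in one: it stores triglyceride and glycogen, secretes lipoproteins and antimicrobial peptides, and runs its own circadian clock. In that clock, Clock and Cycle activate per, tim, vri and Pdp1, whose products feed back on Clock activity or on Clk transcription. Dissected abdominal tissue can carry pieces of testis, gut, muscle, nerve and other organs, so markers of these were followed beside the fat body's own. Levels below are log2(intensity + 16), differences are day 2 minus day 1 on that scale, and a gene is called when its adjusted p is under 0.05 (limma fitted with the hour as a block, Benjamini-Hochberg adjustment over 11261 probe sets).

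The arrays were checked against the labelled tissue. Of 12 fat body marker genes, 9 were on the array and 8 were bright enough to test. The lipoprotein precursor gene apolpp averaged 12.46 on day 2 and 12.35 on day 1, and the droplet protein gene Lsd-2 averaged 12.50 on day 2 and 12.44 on day 1, while Fbp2 lay near the dim end at 5.49 on day 2 and 5.60 on day 1. The mean of the list was 10.32 ± 0.27 on day 2 and 10.20 ± 0.20 on day 1 (SD, n = 12 each), a difference of 0.12 (two-sided exact sign-flip p = 0.215 over the 12 pairs). This mean was higher on day 2 in 10 of 12 pairs, and lower only at ZT 24 and ZT 36.

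Day 2 arrays differed more among themselves than day 1 arrays did. The median of all probe sets ran from 5.19 to 6.27 on day 2 and from 5.81 to 6.06 on day 1, with means of 5.70 ± 0.42 on day 2 and 5.94 ± 0.08 on day 1 (SD, n = 12 each, exact p = 0.0669). The day 2 arrays at ZT 32, 34, 38, 40, 44 and 46 had medians below that of every day 1 array, between 5.19 and 5.51. The other 6 day 2 arrays lay between 5.87 and 6.27. The 99th percentile of intensity was 4193 to 4438 in the 6 arrays with a low median, 2692 to 3533 in the other day 2 arrays and 2709 to 3792 on day 1, so the low medians went with a bright upper end. Probe sets under 20 intensity units made up 37.7 ± 10.0% of an array on day 2 and 31.8 ± 1.7% on day 1. Across 8519 genes, each represented by its brightest probe set, 7032 (82.5%) varied more over the hours of day 2 than over those of day 1, with a median SD of 0.38 on day 2 and 0.26 on day 1.

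Testis transcripts varied widely from array to array. The mean over 35 tested testis genes had a lowest, median and highest value of 4.88, 6.07 and 9.56 on day 2, against 5.80, 7.61 and 9.41 on day 1. It was lower on day 2 in 10 of 12 pairs, but the days overlapped over nearly the whole range and the difference of -0.57 had an exact p of 0.293. The 6 day 2 arrays with a low median had testis values of 4.88 to 6.09 and the other 6 had 6.06 to 9.56, so values without those 6 pairs leave out most low-testis arrays of day 2 too. The testis difference was 0.30 without them. The highest testis values of day 2 stood at ZT 24 and ZT 36, with 9.42 and 9.56. In bulk tissue, fewer cells of a type and less RNA per cell cannot be told apart.

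Of 16 array measures, only the 3′ to 5′ ratio of the Act5C control probe sets differed between the days after adjustment over the 16. This ratio compares signal at the 2 ends of the actin transcript and is used as a check of RNA quality and labelling. Its log2 value was 3.43 ± 0.39 on day 2 and 3.01 ± 0.26 on day 1 (SD, n = 12 each), higher on day 2 in 12 of 12 pairs by 0.42 (exact sign-flip p = 0.000488, the smallest that 4096 flips can give, adjusted p = 0.00781). The same ratio for Gapdh was lower on day 2 by 0.10 (exact p = 0.660). Nerve markers averaged 6.397 ± 0.380 on day 2 and 6.715 ± 0.138 on day 1 (exact p = 0.0210, adjusted p = 0.154), and muscle markers 9.48 ± 0.22 on day 2 and 9.69 ± 0.19 on day 1 (exact p = 0.0288, adjusted p = 0.154). Neither passed after adjustment. Without the 6 pairs with a low day 2 median, the Act5C difference was 0.58.

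**Figure D1:**
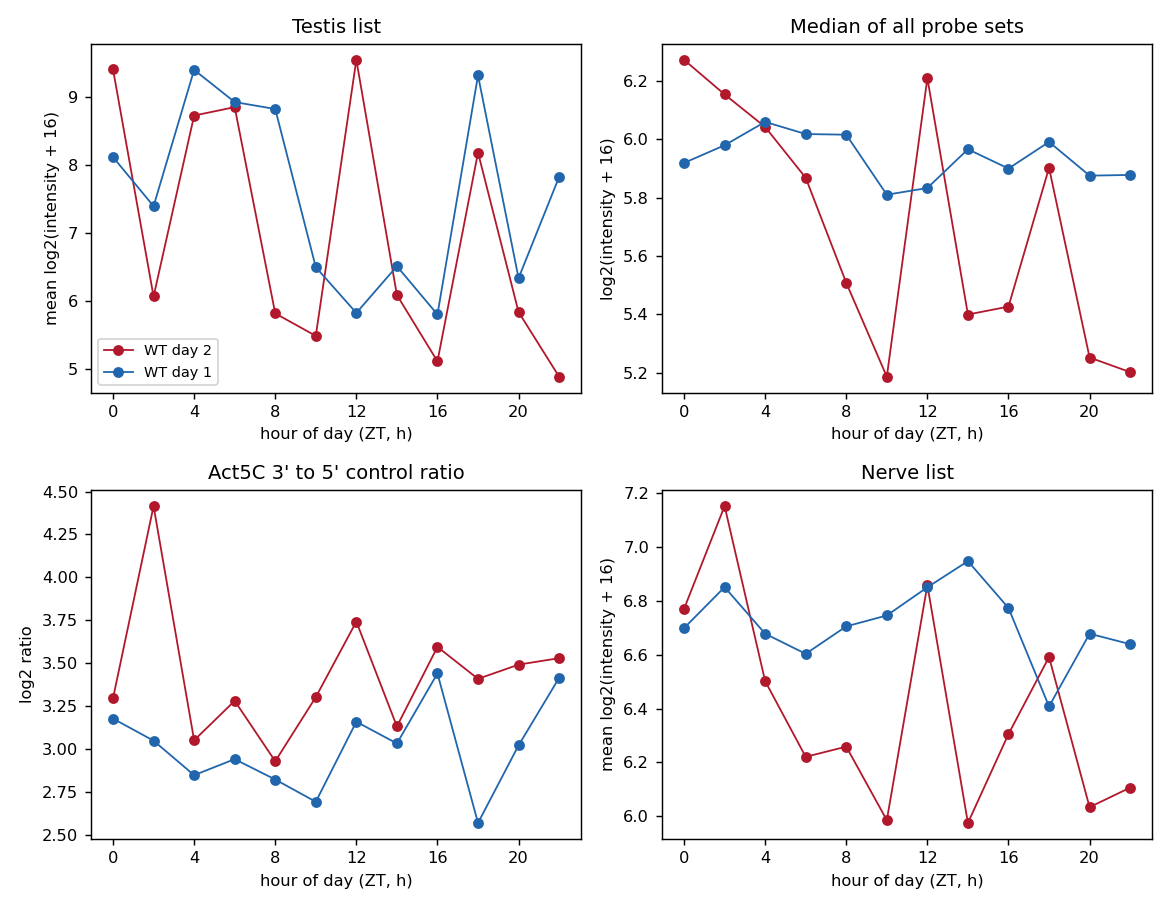
Mean testis level, median of all probe sets, log2 Act5C 3′ to 5′ ratio and mean nerve level (vertical axes, log2 units) against hour of day (horizontal axis, hours), with WT day 2 in red and WT day 1 in blue, 1 point per array. The Act5C ratio of day 2 lies over that of day 1 at all 12 hours, while 6 day 2 medians lie under all 12 day 1 medians.

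Few genes passed the test, and all of those that did were lower on day 2. They included receptors and signalling kinases (tkv, htl, fray, mnb), transporters of the nervous system and glia (Gat, VAChT), a nuclear receptor (ftz-f1) and a nuclear import receptor (Tnpo). Of 11261 probe sets 25 were called (0.222%), 0 of them higher and 25 lower, and they covered 18 of 8519 genes (0.211%). The 18 genes were lower by 0.43 to 1.04, and each was lower in 11 or 12 of the 12 pairs. Of all 8519 tested genes, 257 had 11 or 12 pairs in 1 direction. The calls rest on these same pairs, so the pair counts are no separate support. For comparison, 3165 of the 8519 tested genes were higher and 5354 lower on day 2, with a median difference of -0.08. At an unadjusted p under 0.05, 704 probe sets (6.25%) were higher and 1662 (14.8%) lower on day 2. The direction and the calls depended on scaling. With each array centred on its median, 1710 probe sets were higher and 362 lower at that threshold, and 0 of the 18 genes were called. After quantile normalization 7 of the 18 were called.

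CG4911 showed the clearest separation of the days. Its lowest, median and highest levels were 5.11, 5.38 and 5.73 on day 2, against 5.78, 6.12 and 6.32 on day 1. Every day 2 array was under every day 1 array, so the days did not overlap. The day 2 levels lay near the dim end, and the part of dimness in this difference was not tested. The difference was -0.67 ± 0.08 (SE, n = 12 pairs), a level 1.596-fold lower on day 2 on the log2(intensity + 16) scale (limma adjusted p = 0.0093). The gene bsd also separated the days without overlap, with 7.51, 7.82 and 7.98 on day 2 against 8.01, 8.36 and 8.59 on day 1 (difference -0.52 ± 0.08, limma adjusted p = 0.028). These were 2 of 8519 genes (0.0235%) with such a separation in this direction, and 0 genes had every day 2 array over every day 1 array.

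Several called genes encode receptors or kinases. The gene tkv, a type I receptor for the bone morphogenetic protein Dpp, had a lowest, median and highest level of 7.82, 8.33 and 8.71 on day 2, against 8.39, 8.81 and 9.28 on day 1. It was lower on day 2 in 12 of 12 pairs by 0.50 ± 0.07 (SE, limma adjusted p = 0.028), with a partial overlap of the days. A second tkv probe set differed by 0.14 in the other direction and was not called. The gene htl, a fibroblast growth factor receptor, was lower in 12 pairs by 0.55. The gene fray, a kinase that controls ion transporters, was lower in 12 pairs by 0.73, and mnb, a DYRK-family kinase, in 11 pairs by 0.54. The dimmer mnb probe sets differed by -0.20 and -0.13 and were not called. The membrane channel gene tty fell by 0.58 in the brighter of its probe sets, and the other probe set differed by 0.06 in the opposite direction without a call.

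The largest called difference was that of Gat, a GABA transporter gene known from glia. It had a lowest, median and highest level of 5.01, 5.74 and 6.74 on day 2, against 6.47, 6.88 and 7.04 on day 1. Gat fell by 1.04 ± 0.18 on the log2 scale (SE, lower in 12 of 12 pairs, limma adjusted p = 0.045), with 2 day 2 arrays, at ZT 24 and ZT 26, within the range of day 1. VAChT, the vesicular acetylcholine transporter, had 5.35, 5.70 and 6.91 on day 2, against 6.22, 6.53 and 6.76 on day 1, and was lower in 11 of 12 pairs by 0.71 (limma adjusted p = 0.045). All 7 tested genes of the nerve marker list, which holds neither gene, had differences below 0 (median -0.35), 0 of them called. Of the list's 10 genes 8 were on the array, and the mean level of the 7 lay between 5.98 and 7.15 on day 2 and between 6.41 and 6.95 on day 1. Without the 6 pairs with a low day 2 median, the nerve list's median difference was 0.04, while Gat and VAChT differed by -0.57 and -0.45.

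The remaining called genes had other roles or none known here. They were Abca3, an ABC transporter gene (-0.63), ftz-f1, which encodes a nuclear receptor (-0.55), Tnpo, which encodes a nuclear import receptor (-0.54), mub, which encodes an RNA-binding protein (-0.47), Ehbp1, an endocytic trafficking gene (-0.43), yata (-0.44), CG42319 (-0.50), CG13563 (-0.95) and CG9896 (-0.84). CG13563 lay near the dim end, with a median of 5.04 on day 2 and 6.13 on day 1. Second probe sets of ftz-f1 and mub differed by -0.39 and -0.38 and were not called. The 7 called probe sets outside the 18 genes comprised 4 without a single gene symbol and 3 that were dimmer probe sets of dl, par-1 and lncRNA:CR31781, named here after their values were seen. The Act5C ratio moved with all of these calls, and its part in them was not tested.

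The count of calls rested on particular arrays. Without the pairs of hours 0, 12 and 18 in turn it was 172, 205 and 103 probe sets, and without any one of the other 9 pairs it was 1 or 2. Without the 6 pairs whose day 2 array had a low median, 0 probe sets were called by limma, 483 had an unadjusted p under 0.05, and the 18 genes were each still lower on day 2, by 0.27 to 0.63 with a median difference of -0.45 over these genes. In that setting CG4911 differed by -0.59 and bsd by -0.40. The pairs kept there were among the 12 by which the 18 genes were called, so they give no separate support. The pairs of hours 0 and 12 hold the day 2 arrays with the highest testis signal, and without both of them 4249 probe sets were called. They are also the only pairs with a higher testis mean on day 2. In that setting 0 probe sets were called when each array's testis mean entered as a covariate, as below. Both settings that leave out several pairs were added after seeing the data.

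**Figure D2:**
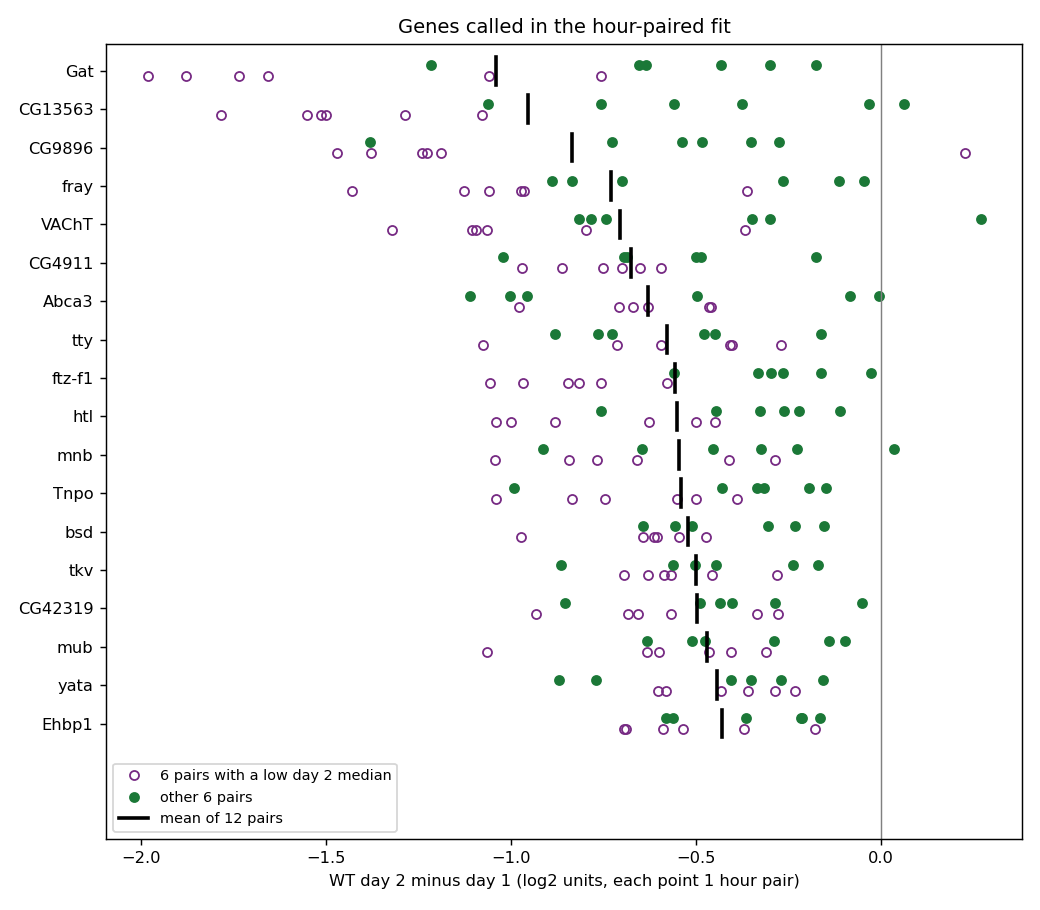
Day 2 minus day 1 differences (horizontal axis, log2 units) of the 18 called genes (vertical axis), 1 point per hour pair, with open points for the 6 pairs whose day 2 array had a low median, filled points for the other 6, and bars for the mean of 12 pairs. Each gene was lower on day 2 in 11 or 12 pairs, and each bar lies between -1.04 and -0.43.

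The comparison was repeated with the testis mean of each array as a covariate. Again most calls were of genes lower on day 2, but 4 genes were higher, among them Shmt of folate metabolism and Spase12, a subunit of the signal peptidase. With the testis list left out of the count, 37 of 11225 probe sets were called (0.33%), 4 higher (0.0356%) and 33 lower (0.294%). They covered 28 of 8484 genes (0.33%), 4 higher (0.0471%) and 24 lower (0.283%), and 17 of the 28 were also called without the covariate. The median difference over all tested genes was -0.03 in this fit. The call of ftz-f1 was lost (limma adjusted p = 0.054), while the other 17 genes kept theirs.

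The genes called lower with the covariate alone were csw, a protein tyrosine phosphatase of receptor kinase signalling (-0.55), COX7AL2, named for a cytochrome oxidase subunit (-0.52), Asx, a Polycomb-group gene (-0.43), oys, a lysophospholipid acyltransferase gene (-0.46), CG32195 (-0.57), CG13907 (-0.48) and CG31076 (-0.64). Their adjusted p-values without the covariate lay between 0.053 and 0.072 (limma), near the threshold. The difference between the fits themselves was not tested. This count also rested on single pairs: it was 0 without the pair of hour 12 or of hour 16, 157 without hour 2 and 109 without hour 18.

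Shmt encodes serine hydroxymethyltransferase, which passes a carbon unit from serine to folate. Its lowest, median and highest levels were 9.62, 11.44 and 12.31 on day 2, against 8.96, 10.01 and 10.58 on day 1. It was higher on day 2 in 10 of 12 pairs, the 2 exceptions being the arrays at ZT 24 and ZT 36, with 10.06 and 9.62, and the days overlapped. Without the covariate the difference was 1.24 ± 0.27 (SE, limma adjusted p = 0.067), and with it Shmt rose by 1.002 (limma adjusted p = 0.041). Without the 6 pairs with a low day 2 median the difference was 0.74.

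The other 3 genes that rose in the covariate fit were CG11267, which encodes a chaperonin-like protein, by 0.54, CG13155 by 0.62 and Spase12 by 0.50. Without the covariate they were higher by 0.65, 0.75 and 0.62, with adjusted p-values of 0.053 to 0.059 (limma). Among genes not called in either fit, CCT4, a subunit of the cytosolic chaperonin, was higher on day 2 in 12 of 12 pairs by 0.39, with 7.47, 7.96 and 8.22 on day 2 against 7.19, 7.52 and 7.92 on day 1 (lowest, median and highest, limma adjusted p = 0.059). CG11279 was higher in 12 pairs by 0.50 (limma adjusted p = 0.059). In all, 7 genes (0.0822%) were higher and 39 (0.458%) lower on day 2 in 12 of 12 pairs.

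Other genes of one-carbon metabolism were measured beside Shmt, and none of them was called. One-carbon metabolism moves single carbon groups through folates and S-adenosylmethionine, and 6 of 7 tested genes of this list were higher on day 2, with a median difference of 0.50, or 0.30 with the covariate. Nmdmc, a mitochondrial methylenetetrahydrofolate dehydrogenase, had 7.13, 8.79 and 10.39 on day 2 against 6.38, 7.10 and 9.03 on day 1 (difference 1.45 ± 0.36, limma adjusted p = 0.077). Ahcy, which clears S-adenosylhomocysteine, had 7.90, 9.25 and 10.38 on day 2 against 8.30, 8.66 and 9.03 on day 1 (difference 0.71 ± 0.24, limma adjusted p = 0.134). In both genes the days overlapped, and the highest day 2 arrays lay above the day 1 range. The differences of pug, Gnmt and Sardh, members named after their values were seen, were 0.50, 0.46 and 0.31, and that of Sam-S was -0.09. Of the 7 genes 0 were called without the covariate and 1, Shmt, with it. Of the 7 genes, 4 were higher and 3 lower without the 6 pairs with a low day 2 median, with a median of 0.11.

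Other genes with a wide spread on day 2 were followed beside Shmt. The gene fit, a sex-biased gene that encodes a secreted fat body peptide, had 8.14, 9.77 and 12.15 on day 2 against 6.50, 8.81 and 9.59 on day 1, and was higher on day 2 in 10 of 12 pairs by 1.33 ± 0.40 (SE, limma adjusted p = 0.106). PGRP-SB1, a peptidoglycan-cleaving immune enzyme gene, had 7.70, 9.49 and 11.37 on day 2 against 6.85, 8.48 and 9.32 on day 1, a difference of 1.36 ± 0.35 (limma adjusted p = 0.083). The antimicrobial peptide gene DptB reached 9.78 at ZT 34 on day 2, against a day 1 maximum of 6.61. It was higher on day 2 in 8 pairs and lower in 4. None of the 3 genes was called. In fit and PGRP-SB1 the day 2 array was under its day 1 partner only at ZT 24 and ZT 36, the arrays with the highest testis signal of day 2. The mean of the fat body list had the same exceptions, so this pattern is not particular to these genes.

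**Figure D3:**
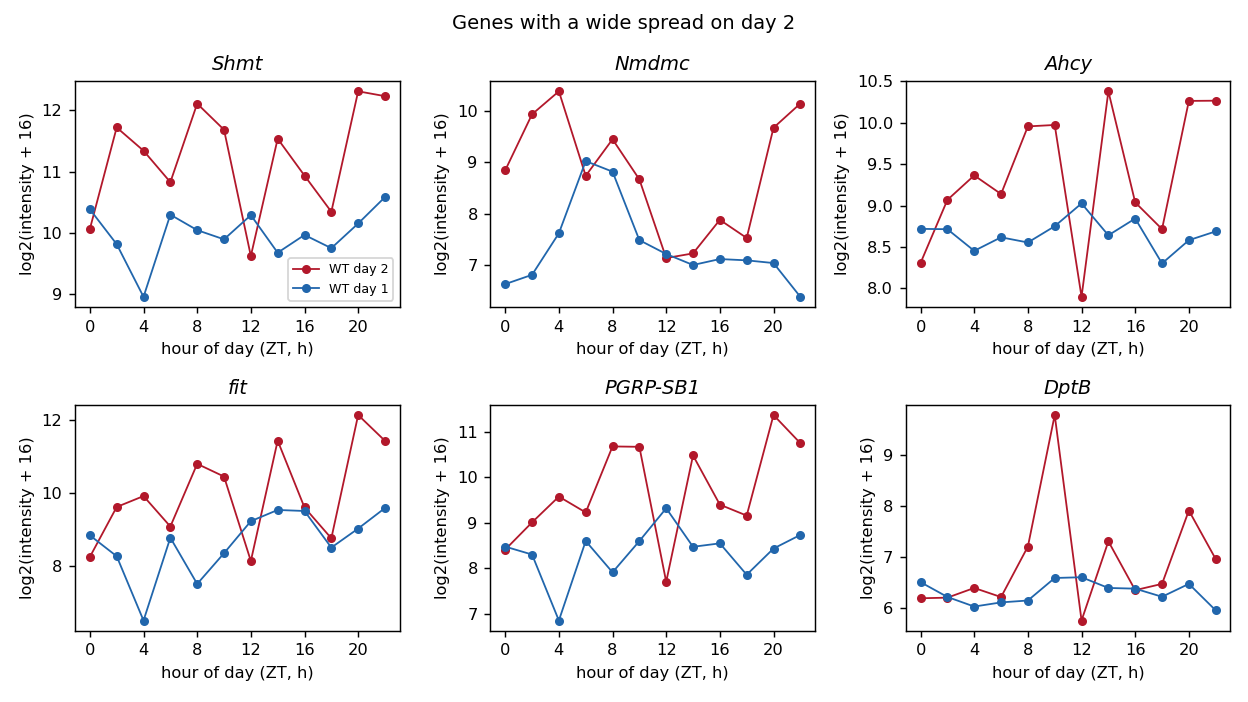
Levels of Shmt, Nmdmc, Ahcy, fit, PGRP-SB1 and DptB (vertical axes, log2(intensity + 16)) against hour of day (horizontal axes, hours), with WT day 2 in red and WT day 1 in blue, 1 point per array. Shmt spans 9.62 to 12.31 on day 2 and 8.96 to 10.58 on day 1, and only its day 2 arrays at hours 0 and 12 lie under their day 1 partners.

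Among the larger gene lists, the genes of the mitochondrial ribosome lay largely on the higher side. Of 69 tested genes 66 were higher on day 2 and 3 lower, with a median difference of 0.27, or 0.19 with the testis covariate. Of all 8519 tested genes, 3165 were higher and 5354 lower, which is the split to set beside each list. None was called by limma in either fit; at an unadjusted p under 0.05, 40 were higher and 0 lower, against 7.37% and 12% of all genes. Their mean level was 7.73 ± 0.31 on day 2 and 7.48 ± 0.09 on day 1 (SD, n = 12 each). The gene mRpL51 had 7.25, 7.82 and 8.44 on day 2 against 6.90, 7.26 and 7.73 on day 1 (lowest, median and highest) and was higher in 11 of 12 pairs by 0.52 (limma adjusted p = 0.067). The days overlapped in this gene, as they did in mRpS18B (0.43) and mRpS6 (0.35). Without the 6 pairs with a low day 2 median, the list's median was 0.05, with 44 genes higher and 25 lower. In that setting 4363 of all tested genes were higher and 4156 lower.

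Genes of the respiratory chain and of fuel use were also mostly higher on day 2. Of 65 tested respiratory chain genes 48 were higher and 17 lower on day 2, with a median of 0.16, and UQCR-Q and ND-B12 differed by 0.56 and 0.46. All 9 tested genes of lipolysis and fatty acid oxidation were higher, by 0.28 to 0.43, among them the triglyceride lipase gene bmm (0.40) and the oxidation enzyme gene Mtpbeta (0.43). Of 13 glycolysis and gluconeogenesis genes 11 were higher, while the hexokinase gene Hex-A differed by -0.41. None of these genes was called except COX7AL2, lower on day 2, in the covariate fit. Without the 6 pairs with a low day 2 median, the medians were -0.07, -0.13 and -0.07 for the 3 lists, so their sides turned.

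Genes of insulin and TOR signalling, which set growth and nutrient storage, lay on the lower side. All 13 tested genes had differences below 0, with a median of -0.18, or -0.24 with the covariate and -0.17 without the 6 pairs with a low day 2 median, but 0.06 after each array was centred on its median. The insulin receptor gene InR had 5.46, 6.08 and 6.57 on day 2 against 5.96, 6.48 and 7.07 on day 1 (difference -0.49, limma adjusted p = 0.096). The transcription factor genes REPTOR and foxo differed by -0.49 and -0.30. Of the 13 genes 0 were called. Of 36 tested proteasome genes 34 were lower and 2 higher, against 5354 lower and 3165 higher of all 8519 tested genes. The proteasome median was -0.13, also after quantile normalization. It was -0.12 with the covariate, -0.07 without the 6 pairs with a low day 2 median and 0.10 after centring. Rpn2, a regulatory subunit gene, was lower in 12 of 12 pairs by 0.30 (limma adjusted p = 0.072).

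Muscle transcripts, from tissue next to the abdominal fat body, were lower in 12 of 14 tested genes. Their median difference was -0.23, and 0 were called. The median was -0.26 with the testis covariate, -0.30 after quantile normalization and -0.17 without the 6 pairs with a low day 2 median. After centring it was 0.01. The troponin gene TpnC41C had 8.99, 9.43 and 10.02 on day 2 against 9.57, 9.92 and 10.27 on day 1 (difference -0.48, limma adjusted p = 0.076). Over the detoxification families, 35 of 63 cytochrome P450 genes and 19 of 32 glutathione transferase genes were higher, with medians of 0.09 and 0.05, and GstE7 differed by 0.995 (limma adjusted p = 0.115). Antimicrobial peptide genes were higher in 11 of 12 tested members, by a median of 0.14, and 0 were called. Of these, 5 were higher and 7 lower without the 6 pairs with a low day 2 median, with a median of -0.03, and the cytochrome P450 median was -0.07. Of all 8519 tested genes, 3165 were higher and 5354 lower on day 2. Their median was 0.15 after centring, against -0.08 before it, so each list median moved upward with it.

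**Figure D4:**
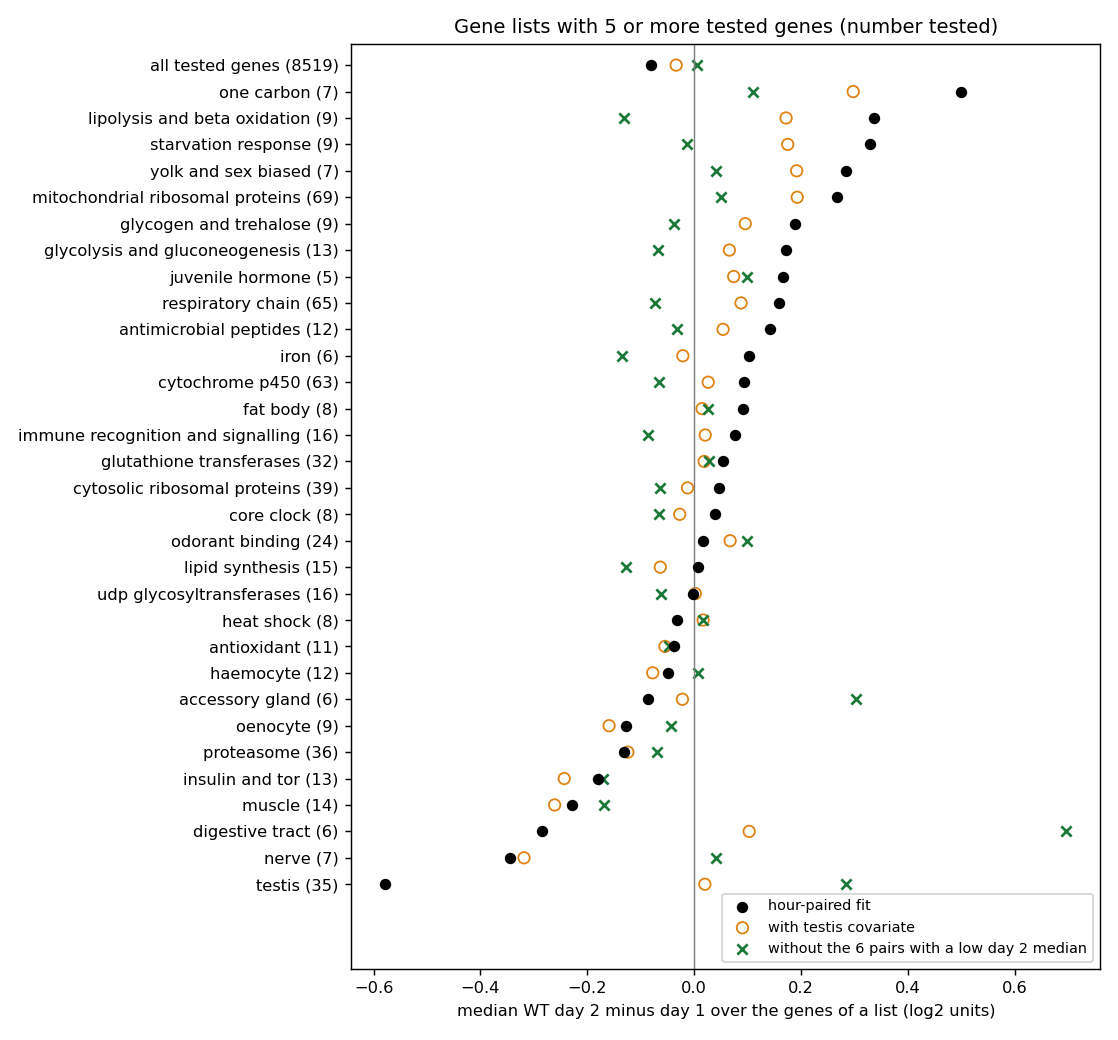
Median day 2 minus day 1 difference (horizontal axis, log2 units) over the tested genes of each list (vertical axis, number tested in brackets), in the hour-paired fit (black), with the testis covariate (orange rings) and without the 6 pairs with a low day 2 median (green crosses). Mitochondrial ribosomal proteins lie at 0.27, 0.19 and 0.05 and all tested genes at -0.08, -0.03 and 0.01; the insulin and TOR, muscle and proteasome medians, among others, turn above 0 after centring, which is not drawn.

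The daily rhythm itself was compared between the days by a day by 24 h curve term. Of 11261 probe sets 0 were called different by limma, and 163 (1.45%) had an unadjusted p under 0.05. The clock gene tim, whose product pairs with Period, had an amplitude of 1.61 ± 0.22 on day 2 and 1.59 ± 0.22 on day 1 (SE), with peaks at 16.4 h on both days. The gene per had 1.18 ± 0.15 on day 2 and 0.98 ± 0.15 on day 1, with peaks at 15.4 h and 14.8 h, and the repressor gene vri had 1.43 ± 0.15 on day 2 and 1.21 ± 0.15 on day 1, with peaks at 14.3 h and 14.7 h. For these 3 genes the day by curve term had unadjusted p-values of 0.996, 0.475 and 0.478 (limma). Clk, which peaks in the opposite phase, had 0.57 ± 0.13 on day 2 and 0.42 ± 0.13 on day 1, with peaks at 2.4 h and 2.6 h.

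The weaker clock rhythms had wide errors relative to their amplitudes. The repressor gene cwo had an amplitude of 0.71 ± 0.17 on day 2 and 0.22 ± 0.17 on day 1 (limma unadjusted p = 0.072 for the day by curve term), and the photoreceptor gene cry had 0.40 ± 0.15 on day 2 and 0.56 ± 0.15 on day 1. Mean levels of the 8 core clock genes differed by -0.28 (vri) to 0.39 (tim), and 0 were called. A second tim probe set differed by -0.05. Outside the clock, the smallest unadjusted p-values for a changed curve were those of CG7365, CG2218, Nmdmc, CG31495, CG9044 and Nadk1a, a NAD kinase gene. Nmdmc had an amplitude of 1.29 ± 0.26 with a peak at 2.0 h on day 2, and of 0.83 ± 0.26 with a peak at 7.9 h on day 1 (limma unadjusted p = 0.0018, adjusted p = 0.9999). None of these genes was called for the curve term, so a shift of the Nmdmc peak is not shown.

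**Figure D5:**
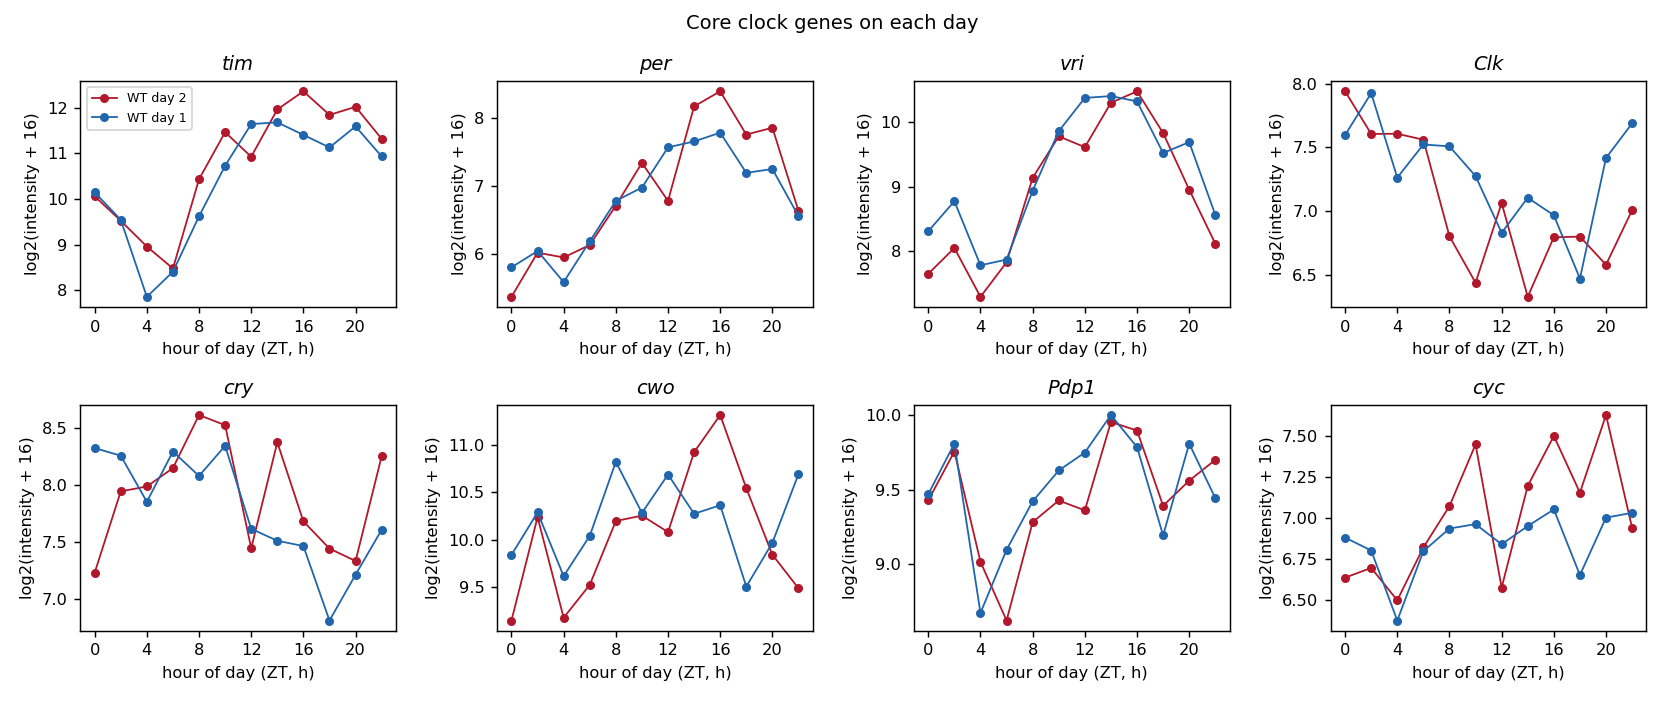
Levels of the 8 core clock genes (vertical axes, log2(intensity + 16)) against hour of day (horizontal axes, hours), with WT day 2 in red and WT day 1 in blue, 1 point per array. The curves of tim, per and vri rise and fall at the same hours on both days, and those of cwo and cyc are taller on day 2.

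The day difference of WT was set against that of dnClk flies at the 12 shared times, 6 on each day. Among the called WT genes, VAChT and yata had day differences that differed between the genotypes. Of 11261 probe sets 20 were called for this term (0.178%), which covered 18 genes, 14 with a lower and 4 with a higher difference in WT. VAChT had 5.35, 5.69 and 6.24 on day 2 against 6.44, 6.56 and 6.69 on day 1 in WT (lowest, median and highest), and 6.21, 6.44 and 6.88 on day 2 against 5.85, 6.31 and 6.42 on day 1 in dnClk. Over all 12 hours the WT days overlapped in VAChT, with a highest day 2 level of 6.91 and a lowest day 1 level of 6.22. At the shared times the day difference was -0.86 in WT and 0.25 in dnClk, and the difference between them -1.11 ± 0.17 (SE, limma adjusted p = 0.040). For yata it was -0.48 in WT and 0.26 in dnClk, a difference of -0.73 ± 0.13 (limma adjusted p = 0.049). Both calls were lost after quantile normalization (limma adjusted p = 0.069 for VAChT and 0.137 for yata) and without the 3 shared hours whose WT day 2 array had a low median, where the terms were -0.87 and -0.76 (limma adjusted p = 0.872). No dnClk array had such a low median, and the genotypes' arrays stood apart in the Act5C ratio (2.82 to 3.74 in WT, 0.93 to 2.08 in dnClk) and the hybridisation controls (11.64 to 12.51 in WT, 9.69 to 10.45 in dnClk). Their part in the term was not tested. The other 16 WT genes called were not called for this term, which does not show that their differences were alike. In dnClk alone, 85 probe sets (0.755%) were called between its days.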

How the data were processed

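Abdominal fat body RNA was measured on Affymetrix expression arrays after biotin labelling, per the labels' protocols. The deposited values are linear probe set intensities that the authors made with MAS5, per the submitters' processing notes, with no version. Each array of the deposited table has a trimmed mean of 150 (2% off each end), and that scaling was kept.

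Here 183 control probe sets were set aside, values became log2(intensity + 16), and of 18769 probe sets the brightest 60% by mean were tested, 11261 in all, the dimmest at 34.6 intensity units. A fold change on this scale understates the change of dim probe sets. GEO's platform annotation gave 13647 probe sets 1 symbol, 402 several and 4720 none, and 13544 matched a Release 6 gene table by Entrez number. Only probe sets with 1 symbol were named, 1 per gene, with the highest mean. No coordinates or sequences are given.

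Day differences were fitted with limma 3.58.1 in R 4.3.3, with hour of day as a block, and Benjamini-Hochberg adjusted. The fit was run without and with the mean of 35 testis genes as a covariate. It had 11 residual degrees of freedom without the covariate, and fewer with it or with pairs left out. Array measures were tested with exact sign flips over 12 pairs. Same-hour arrays are of different flies, and their deviations from the day means had a median correlation of 0.51 (range -0.71 to 0.84, 9 of 12 over 0.1).

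The comparison, the gene lists and the rule for named genes were chosen with earlier results of these data known. The rule named the called genes with the largest differences, or the 5 smallest p-values of a direction with fewer calls, in both fits; up to 3 genes per list and fit; the core clock; and the smallest p-values for the curve (6) and genotype (4) terms. Alternatives changed the pseudocount, normalization, filter, block, array weights, covariates and arrays used.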

Additional observations from a re-analysis of the deposited data

Results flagged for a closer look

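The day difference differed between WT and dnClk in 20 probe sets by the genotype by day term (limma, adjusted p under 0.05). Besides VAChT (-1.11) and yata (-0.73), named above, the genes with the smallest p-values were those whose difference lay mainly in dnClk. The WT minus dnClk day difference was 1.46 for the carbonic anhydrase gene CAH9, 1.05 for the cytochrome P450 gene Cyp313a4, -1.35 for twit and -0.90 for the transcription factor gene stc (limma adjusted p = 0.040 for each). CAH9 had a day difference of 0.32 in WT and -1.13 in dnClk, and twit one of -0.32 in WT and 1.03 in dnClk. Oatp58Dc, an organic anion transporter gene and a Malpighian tubule marker, had a term of -2.32, with a day difference of -0.76 in WT and 1.56 in dnClk. Its level spread from 5.04 to 8.16 on day 2 and from 5.33 to 8.78 on day 1 in WT, where the tubule list varied too. In dnClk its level lay between 7.19 and 7.90 on day 2 and between 5.31 and 6.84 on day 1. The tubule list, which holds this gene, also stood higher on day 2 in dnClk, at 7.01 to 7.77 against 6.09 to 6.95 on day 1. The part of that tissue in the difference was not tested. After quantile normalization stc kept its call for the genotype by day term, while CAH9, Cyp313a4, twit and Oatp58Dc lost theirs. Without the 3 shared hours with a low WT day 2 median, 0 probe sets were called.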

How the results depend on the processing

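Each day of WT has 1 array per time and 6 of its day 2 arrays have low medians, which limits every count. A pseudocount of 1 gave 5 called probe sets, a pseudocount of 64 gave 40, quantile normalization 11, centred arrays 1, the brightest 40% of probe sets 55 and array weights 4989, against 25. With no replicate block, so that hours were not paired, 263 were called, and 263 with 24 h terms in its place. With the testis covariate, these settings gave 1, 122, 160 and 9, then 1578 with array weights, 593 and 588 with no replicate block, and 18 with no filter, against 37; accessory gland or hybridisation control means as a second covariate gave 571 and 140. After centring, 1710 probe sets had a higher and 362 a lower day 2 level at an unadjusted p under 0.05, against 704 and 1662. The cause was not tested. Leaving out 1 hour pair gave 1 to 205 calls without and 0 to 157 with the covariate. The alternatives added after seeing the data gave 4249 and 0 calls without hours 0 and 12 (5584 and 1464 at an unadjusted p under 0.05), and 0 and 0 without the 6 pairs with a low day 2 median (483 and 693). In that last setting the muscle difference was -0.15 and the nerve difference 0.000914, on the other side of 0, as were, among others, testis (0.30), digestive tract (0.77), Malpighian tubule (0.17) and the array median (0.11). Leave-one-out differences ran from -0.96 to -0.34 for testis, 0.34 to 0.69 for ejaculatory tract (0.48 with a pseudocount of 64, then under an unadjusted 0.05), -0.27 to -0.17 for muscle, -0.29 to -0.20 for the array median, 238 to 442 units for the 99th percentile and 4.97 to 7.33 for the percent under 20 units. The genotype by day term gave 134 calls with the testis covariate, 2 with quantile normalization and 102 with no replicate block, against 20, and 0 without the 3 shared hours with a low WT day 2 median, added after seeing the data (284 at an unadjusted p under 0.05). The curve term gave 0 calls in every setting run, with 99 to 756 at an unadjusted p under 0.05, the most without ZT 36. None of the 18 called genes changed sign in any alternative, and none was called in all of them. CG4911 was called in 21 of 24. The 18 genes were called as lower from these same arrays, so their kept sign is no separate support.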

Other observations

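None of the genes in the further lists below was called in either fit (limma). Their counts stand beside 3165 higher and 5354 lower of all 8519 tested genes. Of 39 tested cytosolic ribosomal protein genes 26 were higher and 13 lower on day 2, with a median difference of 0.05 that turned to -0.04 after quantile normalization, and a mean level of 10.95 ± 0.10 on day 2 and 10.94 ± 0.05 on day 1 (SD, n = 12 each). Of 15 lipid synthesis genes 8 were higher and 7 lower, with a median of 0.01 that turned to -0.09 after quantile normalization, and the citrate lyase gene ATPCL differed by -0.33. Glycogen and trehalose genes were higher in 7 of 9 members, among them the glycogen synthase gene Glys (0.39) and the phosphorylase gene Glyp (0.33), and their median was -0.04 without the 6 pairs with a low day 2 median. In the starvation response list, 8 of 9 genes were higher, and tobi, an alpha-glucosidase gene, had 9.14, 10.80 and 12.20 on day 2 against 9.12, 10.03 and 10.44 on day 1 (lowest, median and highest, difference 0.89, limma adjusted p = 0.160). The starvation list's median of 0.33 turned to -0.01 without those 6 pairs, with 4 genes higher and 5 lower. Tsf1, a transferrin gene, was higher in 10 of 12 pairs by 0.41.

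Markers of other tissues varied from array to array within each day. The gut protease list ran from 6.01 to 9.44 on day 2 and from 5.80 to 10.11 on day 1, and the Malpighian tubule list from 5.34 to 7.80 on day 2 and from 5.77 to 8.65 on day 1. The ejaculatory tract list had its highest value, 10.44, at ZT 24 on day 2, against a day 1 maximum of 8.76. Haemocyte markers had a mean of 7.46 ± 0.17 on day 2 and 7.51 ± 0.15 on day 1, and He, a haemocyte gene, differed by -0.48 (limma adjusted p = 0.135). The heat shock list had a median difference of -0.03 (0.20 after centring), with 4 of 8 genes higher.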
